A study of Mus musculus with 9 samples.

Results

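Integrin subunits were followed as transcripts in 9 RNA-seq libraries of mouse peritoneal macrophages. The 10 subunits (Itgam, Itgax, Itgal, Itga4, Itga6, Itgb1, Itgb2, Itgb3, Itgb5 and Itgb7) were chosen by gene symbol, as rows of the count files whose Ensembl identifier maps to that symbol in GENCODE mouse release M21. They are 10 of 47729 gene identifiers in the files, and all 10 passed the filter on low counts. All mice carried Cx3cr1CreERT2-IRES-EYFP/+ and Rosa26-stopfl-tdTomato/+, a tamoxifen-inducible Cre with a yellow fluorescent protein driven by Cx3cr1 and a Cre-dependent red reporter. Every mouse also received IL-4 (5 µg) complexed with its antibody (25 µg) into the peritoneum on alternate days, starting 4 days ahead of harvest, a treatment known to drive alternative activation. The converted group (3 libraries) had 2 ml of thioglycollate, an irritant that recruits monocytes to the cavity, and a tamoxifen diet over 10 weeks. For the resident group (3 libraries) the labels give no further treatment, and the monocyte-derived group (3 libraries) was harvested 4 days after 2 ml of thioglycollate. Age is not given in the sources used here. Nothing in the labels says that the libraries are separate animals, and the spread behind each p-value may therefore be technical.

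Integrins are adhesion receptors at the cell surface, each made of 1 alpha and 1 beta subunit that must pair to leave the endoplasmic reticulum. On leukocytes the beta-2 subunit (Itgb2, CD18) pairs with CD11a (Itgal), CD11b (Itgam), CD11c (Itgax) or CD11d (Itgad), while beta-1 and beta-7 pair with alpha-4. Beta-1 also pairs with alpha-6 to bind laminin, and beta-3 and beta-5 pair with alpha-v to bind vitronectin and to take part in the uptake of dying cells. CD11b and CD11c are the markers by which macrophages and dendritic cells are most often gated in flow cytometry.

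Itgam and Itgax are neighbours on GRCm38 chromosome 7, with Itgal further along the same chromosome. Upstream sequences are shown for this neighbouring pair, which moved in opposite directions, and for Itgb7 and Itgb5, the beta subunits with the largest change in each direction. They come from RefSeq (GRCm38.p6), which had a window for 6 of the 10 subunits, and each covers the 250 bases before the annotated start. Capitals mark GAGGAA (the core of PU.1 and other ETS factors), the RUNX core TGTGGT and the GATA-factor site AGATAA, searched on both strands; none of these overlap.
Itgam (chr7:128062390-128062639, plus strand): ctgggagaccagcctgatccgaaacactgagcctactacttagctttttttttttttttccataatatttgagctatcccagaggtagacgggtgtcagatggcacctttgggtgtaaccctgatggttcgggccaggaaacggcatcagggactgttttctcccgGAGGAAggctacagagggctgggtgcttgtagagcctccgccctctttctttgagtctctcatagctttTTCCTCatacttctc
Itgax (chr7:128129300-128129549, plus strand): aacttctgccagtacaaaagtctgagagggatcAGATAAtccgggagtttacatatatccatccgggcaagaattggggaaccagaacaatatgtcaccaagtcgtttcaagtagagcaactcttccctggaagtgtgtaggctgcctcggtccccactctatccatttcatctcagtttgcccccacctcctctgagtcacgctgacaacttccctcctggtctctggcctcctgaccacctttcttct
Itgb7 (chr15:102231936-102232185, minus strand): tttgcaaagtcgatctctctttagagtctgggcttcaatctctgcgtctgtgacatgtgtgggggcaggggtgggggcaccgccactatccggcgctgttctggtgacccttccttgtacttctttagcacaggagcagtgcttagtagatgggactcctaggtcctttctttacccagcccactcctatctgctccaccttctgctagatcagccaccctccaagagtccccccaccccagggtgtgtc
Itgb5 (chr16:33829415-33829664, plus strand): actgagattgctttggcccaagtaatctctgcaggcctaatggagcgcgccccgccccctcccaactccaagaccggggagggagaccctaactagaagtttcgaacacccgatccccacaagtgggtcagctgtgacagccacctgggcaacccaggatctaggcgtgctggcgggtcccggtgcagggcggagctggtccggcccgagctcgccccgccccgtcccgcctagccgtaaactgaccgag

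Over the whole window of 300 bases, which runs 50 bases past the start, Itgam held 3 matches to GAGGAA, with first bases at -84, -15 and 33 counted from the start. Itgb1 held 1 at -9 and Itgb7 1 at 3. The Itgax window held AGATAA at -217 and TGTGGT at 14, Itga4 held TGTGGT at -60, and Itgb5 held none of these motifs. Of all 32851 windows of this length, 28.3% held GAGGAA, 16.8% TGTGGT and 11.2% AGATAA, so these matches describe letters and say nothing of binding.

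The libraries held 15220884 to 20496258 reads in genes. Csf1r, the growth factor receptor that macrophages carry, lay between 1053 and 1159 CPM (counts scaled to library size after TMM normalisation) in all 9 libraries. Adgre1, another macrophage gene, was not level: it averaged 3077 CPM in converted, 2978 in resident and 343.3 in monocyte-derived libraries. Listed macrophage markers summed to 5137 to 6620 CPM in converted, 5514 to 5777 in resident and 3198 to 6094 in monocyte-derived libraries. All 7 listed genes were read in each group, and the sums overlapped. Large cavity markers summed to 2556 to 3239 CPM in converted, 2814 to 2919 in resident and 682.3 to 853.4 in monocyte-derived libraries, with all 6 listed genes read in each group. Markers of B cells summed to 71.4 to 183.5 CPM in converted, 1182 to 1528 in resident and 40.6 to 81.7 in monocyte-derived libraries, with all 10 listed genes read in each group. Xist, which silences an X chromosome in female cells, had no read in converted libraries, 2 reads in resident libraries and 3247 in monocyte-derived ones. Sex and the recent thioglycollate cannot be told apart from the monocyte-derived group, nor the tamoxifen diet from the converted one. Each comparison below is between sorted bulk populations, in which fewer cells of a type and less RNA per cell cannot be told apart.

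**Figure D1:**
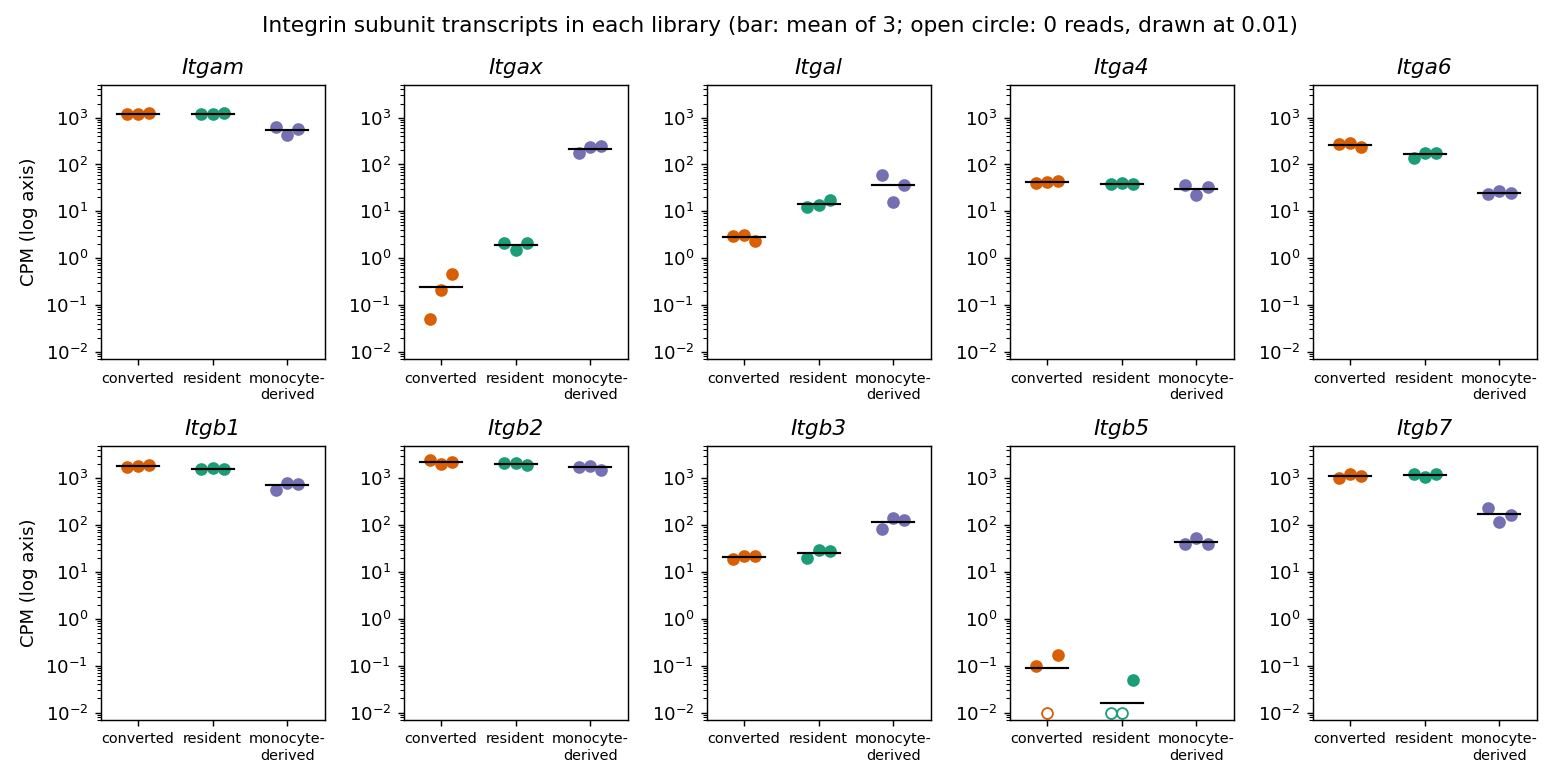
CPM of each subunit in the 9 libraries on a log axis, by group. Itgax and Itgb5 are below 3 CPM in every converted and resident library and at or above 39.7 CPM in every monocyte-derived one, whereas Itgam, Itgb1, Itgb7 and Itga6 are higher in converted and resident libraries.

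All 10 subunits passed the test between converted and monocyte-derived libraries, 6 higher and 4 lower (edgeR, adjusted p under 0.05), where 50.7% of 13223 genes did, 25.8% higher and 24.9% lower. Higher were Itga6, Itgb7, Itgb1, Itgam, Itga4 and Itgb2, and lower were Itgax, Itgb5, Itgal and Itgb3. Their median log2 fold change was 0.44, beside -0.01 over all genes, and their median absolute change was 2.60, beside 0.47. Between resident and monocyte-derived libraries 4 were higher and 4 lower, at a background of 50.7% (25.7% higher and 24.9% lower), while Itga4 and Itgb2 did not pass. The median change there was 0.30 beside 0.00 over all genes. Itgb5 passed the filter on low counts only through the monocyte-derived libraries and so had to differ. Itgax passed it only through resident and monocyte-derived libraries and so had to be lower in converted ones. These 2 comparisons share the monocyte-derived libraries.

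**Figure D2:**
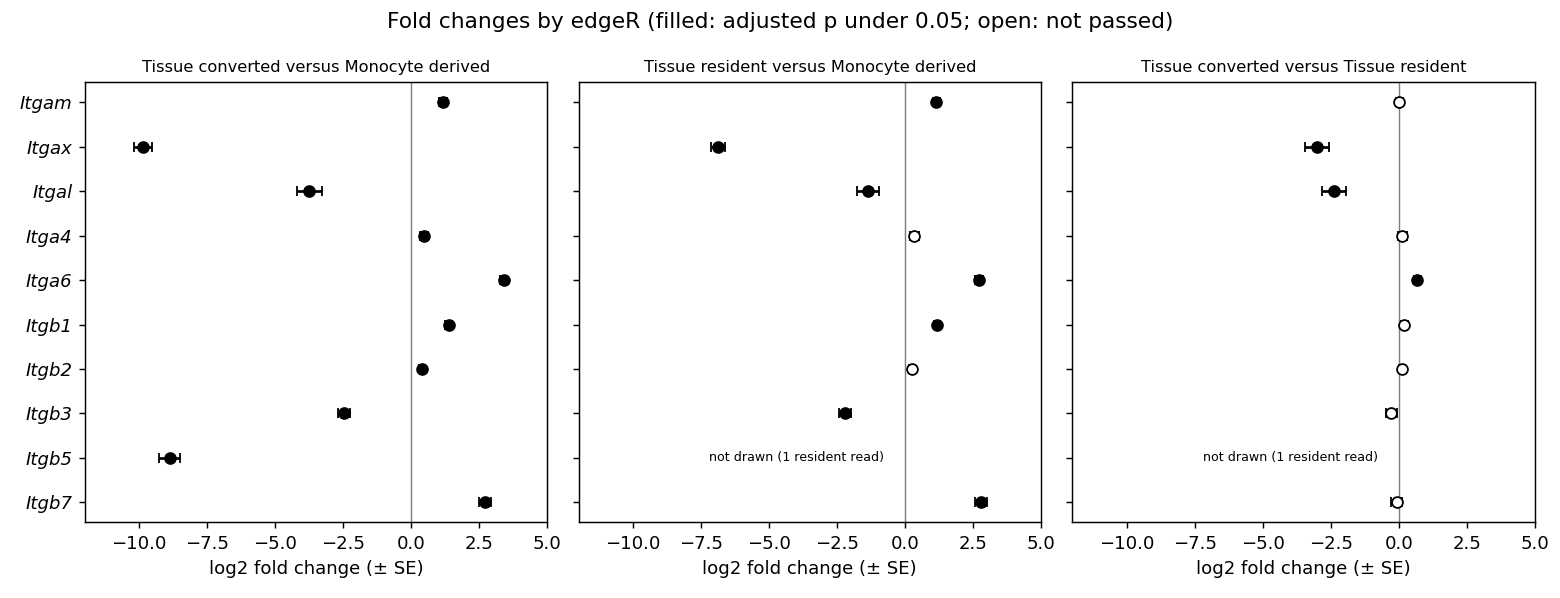
Log2 fold changes with their SE from edgeR for the 3 comparisons, with filled points at an adjusted p under 0.05. Changes against monocyte-derived libraries run from -9.86 (Itgax) to 3.41 (Itga6) in converted libraries, and 3 subunits separate converted from resident libraries; Itgb5 is not drawn against resident libraries, which held 1 read of it.

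Itgam (ENSMUSG00000030786, chromosome 7, 128062640 to 128118491, plus strand) encodes CD11b, the alpha chain of complement receptor 3, which binds iC3b, fibrinogen and ICAM-1. It had 1183, 1203 and 1285 CPM in converted libraries, 1206, 1174 and 1229 in resident ones and 638.9, 427.1 and 559.4 in monocyte-derived ones. Every converted and resident library lay above every monocyte-derived one, and converted and resident libraries overlapped. The level was 2.26-fold higher in converted than in monocyte-derived libraries (log2 1.18 ± 0.13 SE, edgeR adjusted p = 5.32e-05) and 2.22-fold higher in resident than in monocyte-derived ones (log2 1.15 ± 0.13, adjusted p = 6.2e-05). Converted and resident libraries differed by log2 0.02 ± 0.13 (adjusted p = 0.939), a difference whose sign turned with upper-quartile scaling. In the annotation 3450 of its 5024 exonic bases are shared with the read-through gene Gm49368, which had 10 reads or fewer in each group.

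Itgax (ENSMUSG00000030789, chromosome 7, 128129547 to 128150657, plus strand) encodes CD11c, the alpha chain of complement receptor 4 and the customary marker of dendritic cells. It fell to 0.0498, 0.21 and 0.45 CPM in converted libraries, which is 1, 4 and 8 reads, against 176.9, 233 and 246.9 CPM in monocyte-derived libraries. Resident libraries had 2.09, 1.47 and 2.06 CPM. The 3 groups did not overlap, with converted libraries lowest. Itgax was 928-fold lower in converted than in monocyte-derived libraries (log2 -9.86 ± 0.32, adjusted p = 3.23e-08), and the log2 change was -10.66 without converted library 3, which held 8 of the 13 reads. Itgax was under the minimum count of 10 in each converted library, so a lower level there was fixed by the filter. It was 116.5-fold lower in resident than in monocyte-derived libraries (log2 -6.86 ± 0.25, adjusted p = 6.3e-08). Listed dendritic-cell markers summed to 20.7 to 80.2 CPM in converted, 166.2 to 183.6 in resident and 16.7 to 60.3 in monocyte-derived libraries. All 6 genes were read in each group, and the sums overlapped between converted and monocyte-derived libraries. The part of dendritic cells in the Itgax levels was not tested.

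Itgal (ENSMUSG00000030830, chromosome 7, 127296260 to 127335138, plus strand) encodes CD11a, the alpha chain of LFA-1, which binds ICAMs and is abundant on lymphocytes. It had 2.94, 3.05 and 2.31 CPM in converted libraries, 12.2, 13.9 and 17.3 in resident ones and 59.1, 15.4 and 36.5 in monocyte-derived ones. Converted libraries lay below all others, while resident and monocyte-derived libraries overlapped. The level was 13.3-fold lower in converted than in monocyte-derived libraries (log2 -3.74 ± 0.45, adjusted p = 0.000113). It was 2.56-fold lower in resident than in monocyte-derived libraries (log2 -1.36 ± 0.39, adjusted p = 0.0161), a call that ended without resident library 1 or 2 (adjusted p = 0.06 and 0.0522) and with no filter on low counts (0.0869). Listed NK-cell markers summed to 1.59 to 2.47 CPM in converted, 15.3 to 24.4 in resident and 16.5 to 94.5 in monocyte-derived libraries, with all 6 genes read in each group. Their part in the Itgal levels was not tested.

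Itgb2 (ENSMUSG00000000290, chromosome 10, 77530252 to 77565708, plus strand), the beta chain shared by these alpha subunits, changed little. It had 2504, 2065 and 2198 CPM in converted libraries, 2093, 2109 and 1976 in resident ones and 1731, 1886 and 1521 in monocyte-derived ones. All converted and resident libraries lay above all monocyte-derived ones. It was 1.32-fold higher in converted than in monocyte-derived libraries (log2 0.40 ± 0.11, adjusted p = 0.0109). The change in resident libraries, log2 0.27 ± 0.11, did not pass (adjusted p = 0.0613), but did without monocyte-derived library 2 (0.022), with DESeq2 (0.0336), limma-voom (0.0433), upper-quartile scaling (0.0271) and no filter (0.0369).

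With Itgb2 nearly level and Itgam and Itgax moving apart, the make-up of the beta-2 partners differed between groups. Length-scaled levels (CPM per kilobase of exons) of Itgam, Itgax, Itgal and Itgad were summed within each library. Itgax made up 0.0044%, 0.0182% and 0.0366% of that sum in converted libraries, 0.18%, 0.129% and 0.173% in resident ones and 21.3%, 35.7% and 30.5% in monocyte-derived ones. Itgal made up 0.173 ± 0.032% in converted, 0.907 ± 0.148% in resident and 3.41 ± 1.74% in monocyte-derived libraries (SD, n = 3 each). Itgam took up 99.81 ± 0.019% in converted, 98.92 ± 0.157% in resident and 67.4 ± 5.58% in monocyte-derived libraries. The 3 groups did not overlap in any of these shares. They are given as a description, with no test. If reads in the bases that Itgam shares with Gm49368 were not counted, its share is set too low: scaled to unshared exonic bases, Itgam had 86.8 ± 2.87% and Itgax 11.9 ± 3.49% in monocyte-derived libraries. Itgad had 10 reads over the 9 libraries.

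**Figure D3:**
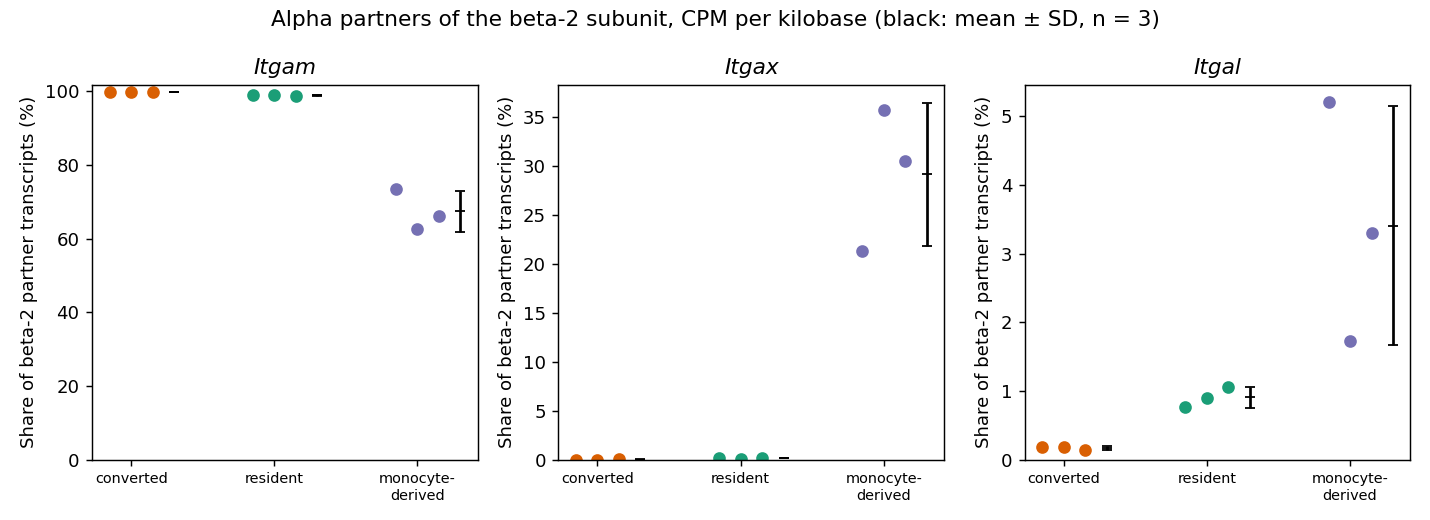
Share of each alpha subunit in the summed beta-2 partners (CPM per kilobase of exons) in each library, in percent, with mean ± SD of 3 libraries beside the points. Monocyte-derived libraries hold 21.3% to 35.7% Itgax, and converted and resident libraries 0.18% or less.

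Itga6 (ENSMUSG00000027111, chromosome 2, 71745616 to 71858416, plus strand) encodes the alpha-6 chain, which pairs with beta-1 or beta-4 as a laminin receptor. It had 274, 286.1 and 236.1 CPM in converted libraries, 137.7, 179.6 and 177.7 in resident ones and 23.4, 27.5 and 24.1 in monocyte-derived ones. The 3 groups did not overlap, with converted libraries highest. The rise was 10.6-fold in converted over monocyte-derived libraries (log2 3.41 ± 0.13, adjusted p = 6.83e-08) and 6.6-fold in resident over monocyte-derived ones (log2 2.72 ± 0.13, adjusted p = 2.21e-07). Among the 10 subunits it was the largest increase in converted libraries. Platelets also carry alpha-6, and listed platelet markers ran in the same group order: they summed to 304.2 to 344.4 CPM in converted, 221.6 to 299.3 in resident and 5.28 to 58.0 in monocyte-derived libraries. Of the 6 listed genes, 3 were read in converted and 4 in resident and in monocyte-derived libraries, with Gp1bb at 0 in all groups and Gp9 at 0 in converted ones. Their part in the Itga6 levels was not tested.

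Itgb1 (ENSMUSG00000025809, chromosome 8, 128685654 to 128733200, plus strand) encodes the beta-1 chain, the partner of most matrix-binding alpha subunits. It had 1768, 1821 and 1982 CPM in converted libraries, 1554, 1671 and 1621 in resident ones and 576.3, 808.4 and 758.9 in monocyte-derived ones. The 3 groups did not overlap. It was 2.6-fold higher in converted than in monocyte-derived libraries (log2 1.38 ± 0.12, adjusted p = 1.32e-05) and 2.26-fold higher in resident than in monocyte-derived ones (log2 1.18 ± 0.12, adjusted p = 3.67e-05).

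Itga4 (ENSMUSG00000027009, chromosome 2, 79255426 to 79333123, plus strand) encodes the alpha-4 chain, which binds VCAM-1 and fibronectin with beta-1 and MAdCAM-1 with beta-7. It had 39.7, 43.2 and 45.0 CPM in converted libraries, 37.9, 40.9 and 37.8 in resident ones and 37.0, 22.5 and 32.5 in monocyte-derived ones. Converted and resident libraries all lay above monocyte-derived ones, but 2 of them by less than 1 CPM. The increase of 1.39-fold in converted over monocyte-derived libraries (log2 0.47 ± 0.16, adjusted p = 0.0292) was lost without converted library 2 or 3 (adjusted p = 0.0673 and 0.0815), with library size alone (0.0902) and with the 2 groups alone (0.0627). Resident libraries did not pass (log2 0.34 ± 0.16, adjusted p = 0.0973), though they did without monocyte-derived library 1 (log2 0.50, adjusted p = 0.0141). In the annotation 1124 of its 13978 exonic bases overlap Cerkl on the other strand, which had 3.09 CPM in converted, 2.66 in resident and 1.23 in monocyte-derived libraries.

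Itgb7 (ENSMUSG00000001281, chromosome 15, 102215995 to 102231944, minus strand) encodes the beta-7 chain, known for homing lymphocytes to the gut with alpha-4 and for holding T cells in epithelium with alpha-E. It had 1032, 1255 and 1112 CPM in converted libraries, 1252, 1098 and 1229 in resident ones and 233.8, 118.7 and 163.4 in monocyte-derived ones. Every converted and resident library lay above every monocyte-derived one, and converted and resident libraries overlapped. The level was 6.58-fold higher in converted than in monocyte-derived libraries (log2 2.72 ± 0.22, adjusted p = 7.08e-06) and 6.94-fold higher in resident than in monocyte-derived ones (log2 2.79 ± 0.22, adjusted p = 6.21e-06). Mast cells and B cells also carry beta-7. Listed mast-cell markers summed to 64.2 to 85.1 CPM in converted, 83.6 to 118.6 in resident and 6.51 to 19.7 in monocyte-derived libraries, with all 6 genes read in each group except Kit, which had no read in converted libraries. The part of either cell type in the Itgb7 levels was not tested.

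Itgb3 (ENSMUSG00000020689, chromosome 11, 104608000 to 104670476, plus strand) encodes the beta-3 chain of the vitronectin receptor, which also marks platelets and osteoclasts. It had 19.2, 22.5 and 22.1 CPM in converted libraries, 20.1, 29.3 and 27.5 in resident ones and 81.4, 142.6 and 132.1 in monocyte-derived ones. All converted and resident libraries lay below all monocyte-derived ones. It was 5.58-fold lower in converted than in monocyte-derived libraries (log2 -2.48 ± 0.22, adjusted p = 1.37e-05) and 4.62-fold lower in resident than in monocyte-derived ones (log2 -2.21 ± 0.22, adjusted p = 2.72e-05). The summed platelet markers given beside Itga6 were higher in converted and resident than in monocyte-derived libraries, the opposite direction to Itgb3. Itga2b, the platelet partner of beta-3, had 2 reads in converted, 4 in resident and 13 in monocyte-derived libraries, the direction of Itgb3. The part of platelets in the Itgb3 levels was not tested.

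Itgb5 (ENSMUSG00000022817, chromosome 16, 33829665 to 33949338, plus strand) encodes the beta-5 chain, the other vitronectin-binding partner of alpha-v. It had 2, 0 and 3 reads in converted libraries and 0, 0 and 1 in resident ones, against 750, 917 and 613 in monocyte-derived ones, which is 40.0, 53.0 and 39.7 CPM. A count of 0 allows up to 3 reads, which is 0.158 CPM in converted library 2. The level was 466.9-fold lower in converted than in monocyte-derived libraries (log2 -8.87 ± 0.39, adjusted p = 1.14e-07), and the log2 change was -9.57 without converted library 3. From pooled reads it was 2554-fold lower in resident than in monocyte-derived libraries (95% counting interval 457.9 to 100900). The separate edgeR test of these groups gave an adjusted p of 1.19e-07. Leaving out resident library 3, which held the only resident read, leaves none. Intervals and limits of this kind cover counting error only.

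Converted and resident macrophages differed in 3 of the 10 subunits, 1 higher and 2 lower, where 6.07% of genes passed, 1.82% higher and 4.26% lower. The median change of the 10 was log2 0.08, beside 0.01 over all genes. That background was 803 genes, and 245, 295, 354, 361, 400 and 535 without resident library 3 or 1, converted library 3 or 1, resident library 2 and converted library 2, and 1628 without monocyte-derived library 1. Of the called genes 29.9% were higher, against 18.8% with library size alone and 18.0% with upper-quartile scaling. Itga6 was 1.61-fold higher in converted than in resident libraries (log2 0.69 ± 0.12, edgeR adjusted p = 0.0108), and no library left out and no other scaling, filter or test changed that call. Itgax was 7.97-fold lower in converted than in resident libraries (log2 -2.99 ± 0.44, adjusted p = 0.0052), and the log2 change was -3.80 without converted library 3. Its resident level was 1.87 ± 0.35 CPM (SD, n = 3), so both groups were near the bottom of the measured range. Itgax passed the filter on low counts without the converted libraries, so it had to be lower in them here too.

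Itgal was 5.21-fold lower in converted than in resident libraries (log2 -2.38 ± 0.44, adjusted p = 0.0151). The call ended without converted library 1 or 3 (adjusted p = 0.0612 and 0.0667) or resident library 3 (0.0657), with limma-voom (0.0763) and with no filter on low counts (0.0792). The summed B-cell markers averaged 113.4 ± 61.1 CPM (converted) and 1335 ± 176.3 CPM (resident), and T-cell markers 2.86 ± 1.86 CPM (converted) and 21.1 ± 6.98 CPM (resident; SD, n = 3 each), with every listed gene read in both groups. Lymphocytes carry Itgal and some carry Itgax, and the part of these cells in both differences was not tested. Of the other 7 subunits, Itgb1 had log2 0.20 ± 0.12 (adjusted p = 0.396) with libraries that did not overlap, and Itgb2 0.13 ± 0.11, Itga4 0.13 ± 0.16, Itgb7 -0.07 ± 0.20 and Itgb3 -0.27 ± 0.21 with libraries that did. A subunit that did not pass may still differ.

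Levels of different subunits were compared per kilobase of exons. Itgb2 was highest in every group, at 739.2 ± 73.8 CPM per kilobase in converted, 674.7 ± 23.8 in resident and 561.2 ± 60.1 in monocyte-derived libraries. Itgb1 and Itgb7 came next in converted and resident libraries and overlapped there, followed without overlap by Itgam and then Itga6. That overlap depends on the length used. Per kilobase of coding length Itgb1 lay above Itgb7 without overlap, at 753.1 against 467.6 in converted and 655.1 against 492.4 in resident libraries. In monocyte-derived libraries the order below Itgb2 was Itgb1 (175.1 ± 29.9), Itgam (107.8 ± 21.3), Itgb7 (62.1 ± 20.9) and Itgax (45.6 ± 7.72), and only Itgb7 and Itgax overlapped among these neighbours. Itgal, Itga6 and Itga4 were last there and overlapped one with the next. Converted libraries ended with Itgax and Itgb5, which overlapped, and resident libraries with Itgax above Itgb5. The place of Itgam depends on its shared bases: per kilobase of unshared exonic bases it was 777.5 ± 34.5 in converted libraries, overlapping with Itgb2, and 764.4 ± 17.7 in resident libraries, above Itgb2.

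Each beta subunit was also set against the sum of its alpha partners in the same library, per kilobase of coding length. Itgb7 exceeded Itga4 and Itgae together by a ratio of 33.0, 36.7 and 31.1 in converted libraries, 41.9, 34.0 and 40.7 in resident ones and 8.05, 6.63 and 6.38 in monocyte-derived ones. Itgae, the alpha-E chain, was at or below 0.572 CPM in each group mean, so nearly all of the alpha side was Itga4. Per kilobase of all exons the ratio was 129 ± 11 in converted, 149.2 ± 16 in resident and 27.1 ± 3.8 in monocyte-derived libraries. Itga4 has 13978 exonic bases against a coding length of 3096. Beta-7 transcripts thus exceeded their partners in all 9 libraries under both lengths. Itgb1 over its alpha partners had a ratio of 5.3 ± 0.462 in converted, 5.97 ± 0.161 in resident and 3.32 ± 0.706 in monocyte-derived libraries, without overlap between monocyte-derived libraries and the others.

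Itgb3 over alpha-v and alpha-IIb had a ratio of 0.632 ± 0.08 in converted, 0.93 ± 0.152 in resident and 2.77 ± 0.84 in monocyte-derived libraries (SD, n = 3 each). Itgb5 over alpha-v had 0.00253 ± 0.0022 in converted, 0.000574 ± 0.00099 in resident and 0.992 ± 0.235 in monocyte-derived libraries. Itgb2 over its partners had 2.85 ± 0.358 in converted, 2.61 ± 0.151 in resident and 3.37 ± 0.801 in monocyte-derived libraries, and these overlapped. Per kilobase of unshared exonic bases the Itgb2 ratio was 0.953 ± 0.12 in converted, 0.88 ± 0.05 in resident and 1.46 ± 0.397 in monocyte-derived libraries. By this length all monocyte-derived libraries lay above all others, so the overlap depends on the length used. The ratios describe transcripts; protein was not measured.

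**Figure D4:**
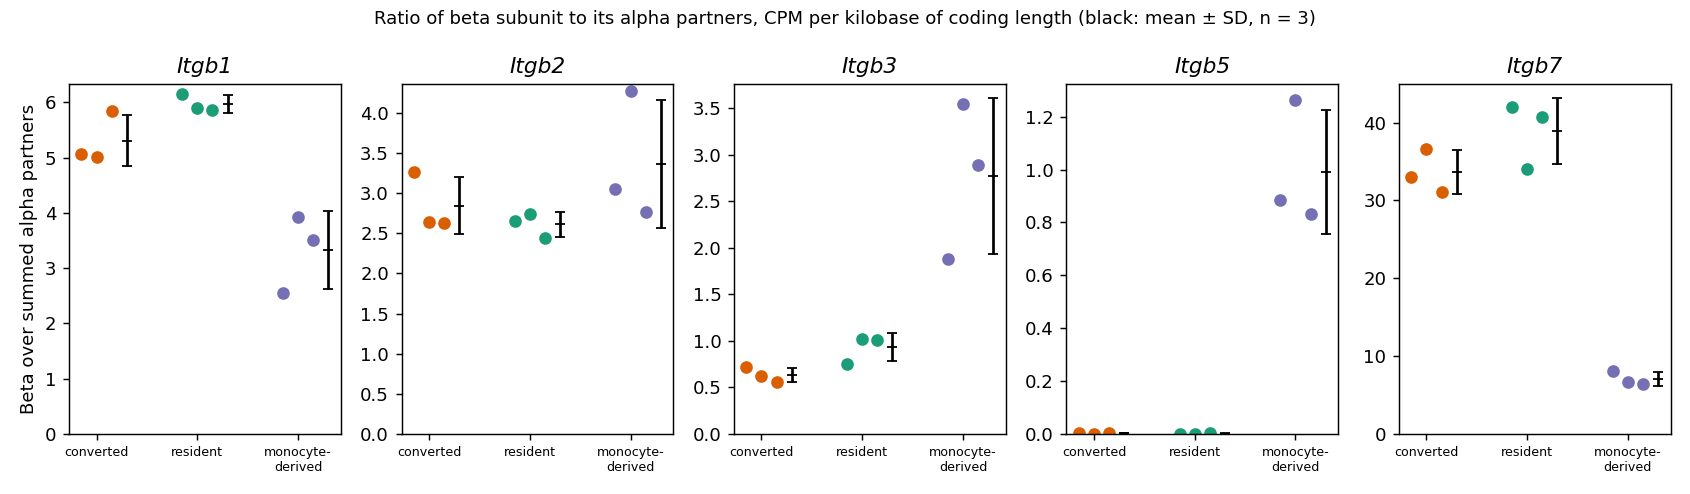
Ratio of each beta subunit to the summed alpha subunits it pairs with, per kilobase of coding length, in each library, with mean ± SD of 3 libraries beside the points; each panel has its own linear axis from 0. Itgb7 and Itgb1 ratios are higher and Itgb3 and Itgb5 ratios lower in all converted and resident libraries than in all monocyte-derived ones, and Itgb2 ratios overlap.

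Of 16 other integrin subunits listed, 8 passed the filter on low counts. Between converted and monocyte-derived libraries 2 were higher and 2 lower, and between resident and monocyte-derived libraries 2 were higher and 3 lower. These shares, 50% in converted and 62.5% in resident libraries, stand beside 50.7% of all genes in each comparison, and a subunit that passed the filter only through the group where it was high had to differ. Itga7, a laminin-binding alpha chain known from muscle, had 6.48 ± 1.59 CPM in converted, 9.39 ± 1.003 in resident and 0.0965 ± 0.085 in monocyte-derived libraries (SD, n = 3; edgeR adjusted p = 4.46e-06 and 2.58e-06 against monocyte-derived libraries). Itgb4, the other partner of alpha-6, had 2.16 ± 0.642 CPM in converted, 1.9 ± 0.605 in resident and 0.21 ± 0.175 in monocyte-derived libraries (adjusted p = 0.000574 and 0.000874). In monocyte-derived libraries Itga7 had 3, 0 and 2 reads and Itgb4 3, 7 and 1. Both passed the filter only through converted and resident libraries and so had to differ from monocyte-derived ones. Itga3, another laminin-binding alpha chain, was under 1 CPM on average in each group and did not pass.

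Itga1, a collagen-binding alpha chain, had no read in converted libraries, 15 reads in resident ones and 440 in monocyte-derived ones. It was at least 162-fold lower in converted than in monocyte-derived libraries, against a limit of 3 reads over the group (edgeR adjusted p = 2.78e-05), and 31.7-fold lower in resident than in monocyte-derived ones (adjusted p = 8.25e-05). Itga1 passed the filter on low counts only through the monocyte-derived libraries and so had to differ in both. Itga5, the alpha chain of the fibronectin receptor, was 1.52-fold lower in both, at 102.3 ± 3.55 CPM in converted, 102.3 ± 3.21 in resident and 155.1 ± 7.37 in monocyte-derived libraries (adjusted p = 7.55e-05 and 7.73e-05). Itgav, the alpha-v chain, had 45.4 ± 8.79 CPM in converted, 36.4 ± 1.32 in resident and 56.9 ± 3.62 in monocyte-derived libraries, and fell in resident libraries (log2 -0.64 ± 0.13, adjusted p = 0.00265) but did not pass in converted ones (log2 -0.33 ± 0.13, adjusted p = 0.063). None of these 8 subunits passed between converted and resident libraries by edgeR. For 2 of the 8, Itga1 and Itgav, the unadjusted edgeR p was under 0.05 there, beside 2749 of all 13223 genes. The 8 subunits below the filter had 2 to 19 reads each over the 9 libraries.

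Integrins are switched on from inside the cell by talin and kindlin, which bind the beta tail after Rap1 has been activated. Of 31 tested activators and adaptors, 10 were higher and 6 lower in converted than in monocyte-derived libraries (51.6%, beside 50.7% of all genes), and 12 were higher and 8 lower in resident than in monocyte-derived ones (64.5%, beside 50.7%). Tln2, talin 2, had 85.3 ± 8.07 CPM in converted, 73.2 ± 4.58 in resident and 1.48 ± 1.18 in monocyte-derived libraries (log2 5.84 ± 0.35 and 5.62 ± 0.35, adjusted p = 1.42e-06 and 1.96e-06). Rasgrp2, which activates Rap1, had 140.2 ± 13.3 CPM in converted, 154.2 ± 4.29 in resident and 18.2 ± 1.57 in monocyte-derived libraries (adjusted p = 3.23e-08 and 2.99e-08). Ptk2, focal adhesion kinase, had 61.3 ± 7.58 CPM in converted, 53.5 ± 4.00 in resident and 13.2 ± 4.98 in monocyte-derived libraries (adjusted p = 5.22e-05 and 9.36e-05). Among those lower were Parvg, a parvin of leukocytes, at 3.47 ± 1.27 CPM in converted, 12.7 ± 1.31 in resident and 67.9 ± 41.9 in monocyte-derived libraries, and vinculin, Vcl. Between converted and resident libraries Rap1b was higher (1978 ± 85.3 CPM in converted against 1598 ± 61.7 in resident libraries, adjusted p = 0.0485) and Parvg and Skap1 lower (adjusted p = 0.0373 and 0.0157). Skap1 had 5, 8 and 2 reads in converted, 49, 23 and 55 in resident and 10, 7 and 20 in monocyte-derived libraries. It passed the filter on low counts only through the resident libraries, where it was high, and so had to differ.

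Of 18 tested integrin ligands, 9 were higher and 6 lower in converted than in monocyte-derived libraries, and 7 were higher and 5 lower in resident than in monocyte-derived ones. That is 83.3% in converted and 66.7% in resident libraries, beside 50.7% of all genes in each comparison, over members that passed the filter on low counts, some of them only through the groups where they were high. Icam2, a ligand of LFA-1 and a surface marker of large cavity macrophages, had 572.7 ± 64.1 CPM in converted, 496.4 ± 10.4 in resident and 27.8 ± 13.6 in monocyte-derived libraries (adjusted p = 9.25e-06 and 1.21e-05). Icam1, another ligand of LFA-1 and of Mac-1, had 20.4 ± 3.17 CPM in converted, 18.2 ± 0.77 in resident and 48.5 ± 17.1 in monocyte-derived libraries (adjusted p = 0.00103 and 0.000513). Ltbp1, a matrix anchor of latent TGF-beta, and Thbs1, thrombospondin 1, were higher in both, at log2 9.66 ± 0.34 and 3.87 ± 0.41 in converted and 9.33 ± 0.34 and 3.69 ± 0.41 in resident libraries. Ltbp1 had 13, 5 and 1 reads in monocyte-derived libraries, so it passed the filter only through the groups where it was high and had to differ. Cdh1, E-cadherin and the ligand of alpha-E beta-7, averaged 10.1 ± 2.41 CPM in converted, 17.4 ± 3.16 in resident and 415.8 ± 167.1 in monocyte-derived libraries (adjusted p = 1.48e-06 and 3.25e-06). Tgfbi was lower as well (adjusted p = 0.00352 and 0.00116). Between converted and resident libraries Fn1, fibronectin, was higher (5992 ± 739 CPM in converted against 3969 ± 529.8 in resident libraries, log2 0.59 ± 0.13, adjusted p = 0.0259), and F11r and Lamb3, both under 5 CPM on average in each group, were lower. C3, the source of iC3b, did not pass there (1726 ± 210.5 CPM in converted and 1831 ± 245 in resident libraries, adjusted p = 0.839). F11r had 0, 11 and 5 reads in converted libraries, and Lamb3 3, 4 and 6. Both passed the filter on low counts only through groups where they were higher, and so had to differ from resident libraries.

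Genes with the pattern most like a subunit were taken as those at the smallest Euclidean distance of centred log2 CPM over the 9 libraries, among 6741 protein-coding genes with at least 20 CPM on average. Nearest to Itgam were Tln1, talin 1 (distance 0.326; 1129 ± 32.2 CPM in converted, 1095 ± 87.7 in resident and 535.9 ± 75.3 in monocyte-derived libraries), and the amino acid transporter Slc7a7 (0.344). Nearest to Itgax were Tmem26 (0.806) and the chemokine Ccl7 (0.997), and nearest to Itgal Cyp4f18 (1.05) and Atp8b2 (1.26). Ryk (0.732) and Pygl (0.746) were nearest to Itga6, Dapk1 (0.178) and Slc7a2 (0.198) to Itgb1, and S1pr4 (0.474) and Pi16 (0.505) to Itgb7. For the subunits that were lower, Plekhf1 (0.6) and Pdxk (0.656) were nearest to Itgb3, and Flrt2 (0.74) and the vitamin D receptor Vdr (0.929) to Itgb5. The libraries share 3 groups, so likeness here is mostly likeness of group means.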

How the data were processed

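Sorted peritoneal macrophages were profiled by RNA-seq (RNeasy Mini or Micro extraction, TotalScript libraries, per the labels). Whole-number read counts for each gene were deposited; TopHat2 2.1.0, HTSeq and GRCm38 are named in the submitters' processing notes. Annotation, strand setting and shared-read handling: not given in the sources used here, so overlapping genes and paralogs are uncertain. Of 47729 identifiers, 47310 matched GENCODE M21. The 5 summary lines were left out; reads in no gene made up 4.02% to 5.66% and ambiguous reads 4.47% to 4.68%. No 2 libraries of a group agreed within sampling noise.

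The fit used edgeR 4.0.16 in R 4.3.3, with filterByExpr (minimum count 10, total 15), TMM, a robust quasi-likelihood F-test over all 9 libraries (6 residual degrees of freedom) and Benjamini-Hochberg adjustment over 13223 genes. Levels are CPM on TMM-scaled library sizes. The code was tested on simulated counts. Alternatives were DESeq2 1.42.0, limma-voom (limma 3.58.1), other scalings and filters, protein-coding genes, 2-group fits, a replicate block and each library left out. Unshared exonic bases as a length were chosen after seeing the data. All 10 subunits are named, as are called other subunits and, in the further lists, up to 3 called genes per direction with at least 5 CPM, or the 2 highest where none was; Skap1, F11r and Lamb3 were added after their values were seen, and a gene that the rule names is not reported here. Subunits and lists were chosen with earlier results of these data known.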

Additional observations from a re-analysis of the deposited data

How the results depend on the processing

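Of the log2 changes of the 10 subunits under each alternative, 186 of 190 kept direction and side of the threshold in converted versus monocyte-derived libraries, 181 of 190 in resident versus monocyte-derived ones and 181 of 189 in converted versus resident ones, where the fit on 2 groups alone gave no value for Itgb5. The change of Itgam in converted versus resident libraries turned to -0.02 with upper-quartile scaling and to -0.00 with a minimum count of 50, and ranged from -0.01 to 0.05 with a library left out. Genes called higher in converted than in resident libraries, 240 in the main fit, were 126 with library size alone, 133 with upper-quartile scaling, 157 with a minimum count of 50, 527 with DESeq2, 900 with the 2 groups alone and 24 to 751 with a library left out. Genes called lower, 563, were 1167 with the 2 groups alone and 221 to 877 with a library left out, and subunits called lower, 2, were 1 with no filter on low counts and with limma-voom and 1 to 2 with a library left out. In all, 1364 genes were called with DESeq2 and 2067 with the 2 groups alone, against 803. The causes were not tested.

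Same-numbered libraries did not deviate together (correlations from -0.09 to 0.07 over 9 pairs, 2 libraries closest to their own number). With 3 libraries per group this cannot exclude a shared animal, day or batch, and the labels do not say what the numbers mark. With the numbers as a replicate block, 530 genes were called between converted and resident libraries, 115 of them higher.

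By coding length, the Itgal share of the beta-2 partners was 0.215% in converted and 1.12% in resident libraries, and the Itgam share 99.8% in converted and 98.7% in resident ones. By longest transcript Itgam had 99.8% in converted and 98.8% in resident libraries and Itgal 1.06% in resident ones. By unshared exonic bases Itgal had 0.0544% in converted, 0.286% in resident and 1.36% in monocyte-derived libraries, Itgam 99.9% in converted, 99.7% in resident and 86.8% in monocyte-derived ones, and Itgax 0.0507% in resident and 11.9% in monocyte-derived ones. Low counts limit Itgax and Itgb5 in converted and resident libraries.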
